A study of Rattus norvegicus with 5 samples.

Results

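RNA abundance was compared between rat vascular smooth muscle cells given DPN at 0.1 µM and the same kind of cells given E2 at 10 nM, in both cases ahead of 24 h of hypoxia. The members are genes. A gene was kept when its normalised read count averaged 100 or more over the 5 libraries of the study, with 1 row per symbol and without the ribosomal RNA rows or the 7 adjacent rows Dennd5a, Nrip3, Tmem9b, Ascl3, LOC499240, Akip1 and St5. This left 8803 genes of the 17048 rows in each table; 8872 rows passed the level and 8814 remained after 1 row per symbol. The genes just inside the level were Zfp418 (mean 100.03, log2 difference DPN minus E2 0.13), Rgs17 (100.06, 0.24) and Abcc10 (100.12, -0.52). Just outside it were Acvr1b (99.92, -0.24), Cd80 (99.90, 0.01) and Trim43a (99.84, 0.83).

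The 5 libraries are 1 each of cells pretreated with DPN and made hypoxic, cells pretreated with E2 and made hypoxic, cells under hypoxia alone, cells pretreated with In-Cl at 0.1 µM and made hypoxic, and a control. The labels give no passage, sex, age or vehicle, and nothing about how the hypoxia was produced or how long the compounds were present before it. With 1 library per group there is no replicate error, no test and no p-value, and every statement compares libraries. The dose of DPN was 10 times that of E2 in molar terms, so library, compound and dose cannot be told apart. For single genes an interval is given for the log2 difference, computed at 95% from the approximate reads of both libraries; it covers counting error only. A number in parentheses after a gene's levels is its log2 difference, DPN minus E2.

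Estrogen receptors are hormone-activated transcription factors. The alpha receptor is encoded by Esr1 and the beta receptor by Esr2, and both bind DNA at estrogen response elements, while Gper1 encodes an unrelated membrane receptor for estrogens. Estradiol (E2) is the natural steroid ligand of both nuclear receptors, and DPN, a non-steroidal diarylpropionitrile, prefers the beta receptor. The series title concerns Ptgs2, which encodes the prostaglandin-forming enzyme cyclooxygenase-2, under hypoxia. Low oxygen stabilises hypoxia-inducible factors, which bind DNA at a short core motif and raise genes of glycolysis, vessel growth and acid handling.

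The DPN and E2 libraries were close to each other. At a difference of 1.5-fold, 28 genes were higher in the DPN library (0.318% of the 8803) and 27 were lower (0.307%), 55 in all (0.625%). At 2-fold, 6 were higher (0.0682%) and 2 were lower (0.0227%). The median log2 difference over all members was -0.01 (-0.005 before rounding), the SD over genes was 0.17, and 7917 genes (89.9%) lay within 1.2-fold. The middle 90% of genes lay between -0.264 and 0.265. The genes past 1.5-fold were mostly of low level. Of the 1155 genes averaging 100 to 200, 14 were higher and 20 lower, whereas of the 2078 genes averaging 1600 or more, 2 were higher and 1 was lower. The SD of the difference over genes was 0.27 in the lowest of these bands and 0.11 in the highest. The level is a mean that includes the DPN and E2 libraries themselves. S100vp, Rgs8, Nemp2, Ankrd16 and Cyp21a1 reached it only with their DPN value. Spata24, Spsb4 and Mrps28 reached it only with their E2 value. All 55 had a counting interval that left out 0. At these read numbers a 1.5-fold difference leaves little room for another outcome, so this adds no support to them. Over all members, 12.5% had an interval above 0 and 14.2% below 0.

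**Figure D1:**
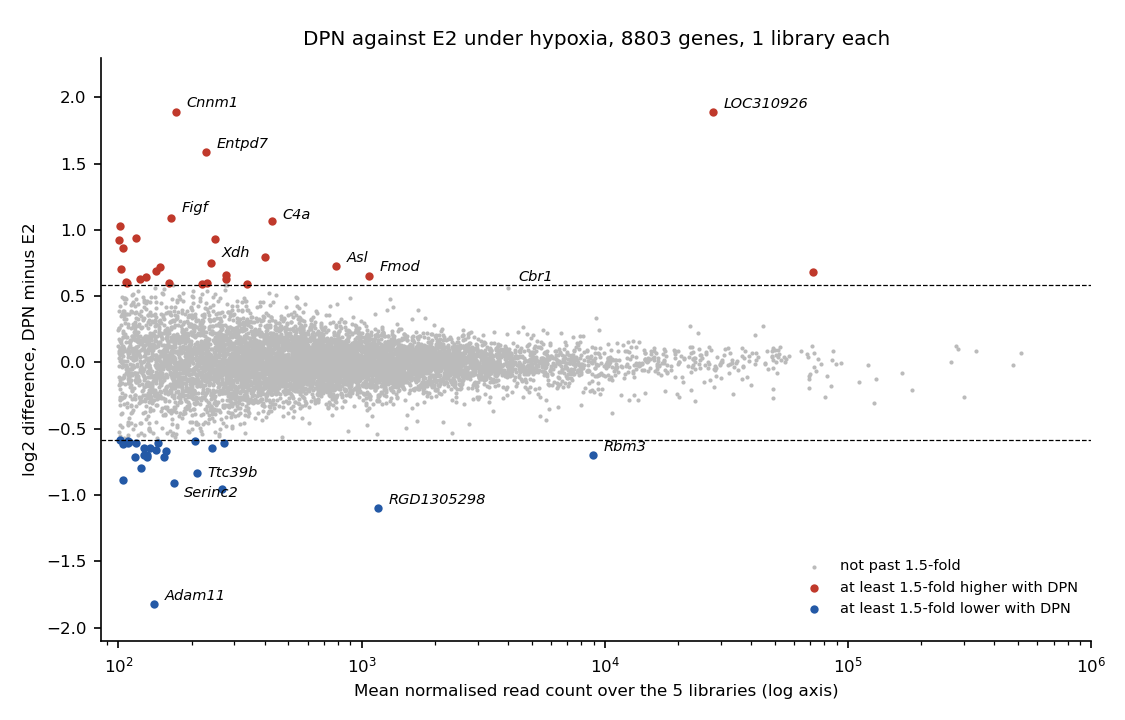
Log2 difference of the DPN library minus the E2 library for each of the 8803 genes (vertical axis) against its mean normalised read count over the 5 libraries (log axis); 1 point is 1 gene, and the dashed lines mark 1.5-fold. Red points are the 28 genes higher with DPN and blue points the 27 lower, and most of both lie at the left, at low counts.

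Cnnm1, a membrane protein of a family linked to magnesium transport, had the largest difference upward. It had 279 normalised read counts with DPN and 74.4 with E2, against 249.6 in hypoxia alone, 35.4 with In-Cl and 223 in the control. The E2 and In-Cl libraries were low and the other 3 were alike; the DPN to E2 difference was 3.71-fold, or 1.89 (interval 1.52 to 2.32) on the log2 scale. Entpd7, a nucleotide-hydrolysing enzyme of internal membranes encoded nearby, was also low in the E2 and In-Cl libraries, at 342 with DPN and 113 with E2, against 300.3 in hypoxia alone, 87.7 with In-Cl and 303 in the control, a difference of 1.59 (interval 1.28 to 1.94). Between these genes in the tables stands Nkx2-3, a homeobox transcription factor whose mean was under the level for members, and it too was low in the E2 and In-Cl libraries, at 50.5 with DPN and 13.6 with E2, against 45.3 in hypoxia alone, 5.84 with In-Cl and 40.9 in the control.

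The genes interleaved with them were not low in those libraries in the same way. Got1, a cytosolic aspartate aminotransferase, had 486 with DPN and 485 with E2, against 509 in hypoxia alone, 429 with In-Cl and 861 in the control. Its difference was 0.00. The differences of Hps1 (0.08), Slc25a28 (-0.10), Cox15 (-0.09) and Cutc (-0.13) were also small. In the RefSeq promoter table Cnnm1, Nkx2-3, Entpd7 and Cutc are on the plus strand of rat chromosome 1, and Hps1, Got1, Slc25a28 and Cox15 on the minus strand. Minus-strand Hpse2, a heparanase relative under the level for members, had 21.0 with DPN and 2.48 with E2, against 10.3 in hypoxia alone, 3.91 with In-Cl and 24.4 in the control.

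The promoters of Cnnm1, Nkx2-3 and Entpd7 are printed because these plus-strand genes were low in the same libraries and lie in the same stretch, with Got1 and Slc25a28 between them. The sequences are RefSeq's for rat build GRCr8, from 250 bases before to 50 after the gene's start, at chr1:252245373-252245672 for Cnnm1, chr1:252427106-252427405 for Nkx2-3 and chr1:252508344-252508643 for Entpd7, all on the plus strand. Capitals mark GGTCA, the unit that the estrogen response element repeats, and ACGTG, the core of the hypoxia response element, read on both strands.
Cnnm1: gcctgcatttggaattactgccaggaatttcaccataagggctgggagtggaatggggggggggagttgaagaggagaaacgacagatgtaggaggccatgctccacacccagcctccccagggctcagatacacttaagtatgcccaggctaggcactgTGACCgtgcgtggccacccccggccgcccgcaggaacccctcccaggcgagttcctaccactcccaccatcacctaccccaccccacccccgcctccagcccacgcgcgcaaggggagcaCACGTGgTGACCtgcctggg
Nkx2-3: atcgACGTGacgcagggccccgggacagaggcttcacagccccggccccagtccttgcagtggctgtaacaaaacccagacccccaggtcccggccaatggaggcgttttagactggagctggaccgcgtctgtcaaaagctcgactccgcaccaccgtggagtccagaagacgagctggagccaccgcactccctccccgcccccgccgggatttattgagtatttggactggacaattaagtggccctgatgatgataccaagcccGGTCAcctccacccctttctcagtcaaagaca
Entpd7: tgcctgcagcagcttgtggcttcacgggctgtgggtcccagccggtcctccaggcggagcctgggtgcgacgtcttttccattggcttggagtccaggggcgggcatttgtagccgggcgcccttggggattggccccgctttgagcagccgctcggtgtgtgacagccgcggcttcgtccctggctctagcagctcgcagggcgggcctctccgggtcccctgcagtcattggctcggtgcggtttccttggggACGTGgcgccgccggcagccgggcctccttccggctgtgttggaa
The Cnnm1 promoter holds 2 GGTCA units and 2 cores, the Nkx2-3 promoter 1 of each, and the Entpd7 promoter 1 core and 0 GGTCA units. The letters CACGTG hold the core once on each strand, and the 2 cores of Cnnm1 are one such palindrome.

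Over all 27457 promoters of 300 bases in the table, 40.2% hold GGTCA and 19.7% hold ACGTG. The members have a promoter in 6830 cases, of which 36.6% hold GGTCA and 27.6% the core. Among the genes past 1.5-fold, 43 of 55 have a promoter. GGTCA is in 8 of 23 (34.8%) of those higher with DPN and 6 of 20 (30%) of those lower. The core is in 8 of 23 (34.8%) of the higher and 5 of 20 (25%) of the lower. The full estrogen response element, with its units facing each other 3 bases apart and no mismatch allowed, is in 7 of all promoters (0.025%) and in 0 of those of members.

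The other large differences upward were in genes of unlike roles. Figf, the older symbol of the vascular endothelial growth factor Vegfd, had 189.5 with DPN and 88.6 with E2, against 74.6 in hypoxia alone, 118 with In-Cl and 353 in the control. The DPN library was above the other 3 hypoxic libraries and below the control; its difference from E2 was 1.09 (interval 0.71 to 1.498). Egr1, an immediate early transcription factor, had 177 with DPN and 107 with E2, against 88.0 in hypoxia alone, 195 with In-Cl and 174 in the control. DPN, In-Cl and control were alike, E2 and hypoxia alone were lower, and the difference was 0.72 (interval 0.36 to 1.10). Xdh, the purine-degrading enzyme xanthine dehydrogenase, had 253 with DPN and 150.1 with E2, against 247 in hypoxia alone, 439 with In-Cl and 114 in the control. Its DPN value was close to that of hypoxia alone and its E2 value was nearer to the control (0.75, interval 0.45 to 1.07).

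Pln, phospholamban, which restrains the calcium pump of the sarcoplasmic reticulum, had 119 with DPN and 73.2 with E2, against 85.9 in hypoxia alone, 87.7 with In-Cl and 350.4 in the control. All 4 hypoxic libraries were far under the control, with DPN the highest of them (0.69, interval 0.25 to 1.16). S100vp had 156 with DPN and 76.2 with E2, against 92.96 in hypoxia alone, 103 with In-Cl and 79.6 in the control, and the DPN library was the highest of the 5. Without the DPN value the mean of S100vp falls under 100, the level for members. Rgs8, a regulator of G protein signalling, had 139.6 with DPN and 72.9 with E2, against 126 in hypoxia alone, 92.7 with In-Cl and 70.1 in the control. Evpl, envoplakin, a protein of cell junctions, had 421 with DPN and 243 with E2, against 341 in hypoxia alone, 304 with In-Cl and 689.7 in the control, so that the control was highest and E2 lowest. Ankrd16 (0.86) and Nemp2 (0.70), a nuclear envelope protein, complete the 15 largest differences upward together with the genes of the chromosomal stretches described next. Quantile normalization moved several of these genes by more than 1.5 times, to 1.80 for Pln, 1.78 for S100vp, 2.27 for Rgs8 and 2.11 for Ankrd16.

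**Figure D2:**
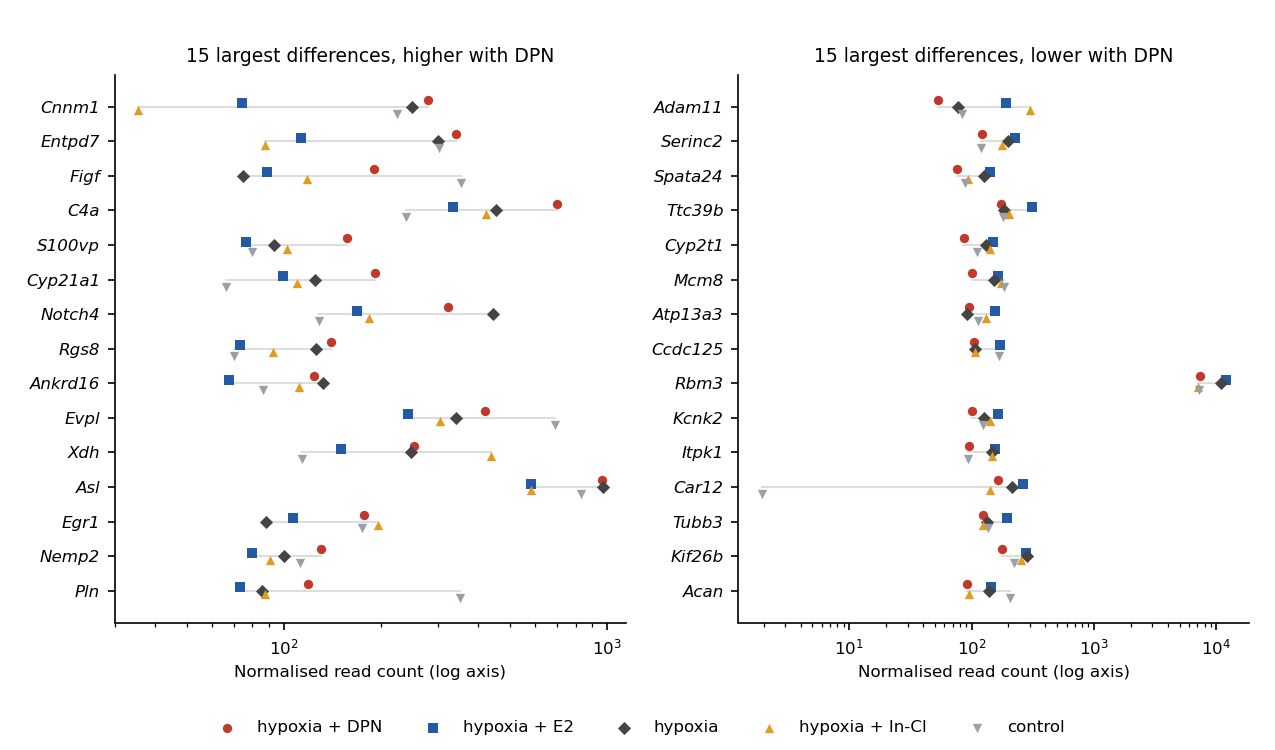
Normalised read counts (log axis) of the 15 genes with the largest difference each way, 1 row per gene and 1 mark per library, with the higher genes at left and the lower at right; the grey line spans the 5 libraries. Cnnm1 and Entpd7 are low in both the E2 and the In-Cl library, and Car12 stands apart in the control at 1.92.

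Of the 28 genes higher with DPN, 8 had another such gene within 20 rows in the tables, against 0 of the 27 lower genes. Neighbours under 1.5-fold, such as those of Myh8, do not count here. Nor do the 7 adjacent rows left out of the members, all lower with DPN, from -2.02 for Akip1 to -7.78 for Ascl3. The 0 therefore holds only without those rows. The share to be found among any members was not computed, so no clustering is read from these counts. The 8 are Cnnm1 and Entpd7, C4a, Notch4, Egfl8 and Cyp21a1, and 2 uncharacterised rows described with the ribosomal RNA. Beside Cnnm1 and Entpd7, the largest group lay on chromosome 20, in the stretch from C4a to Dxo. There 11 of 13 members were above 0, with a median difference of 0.43, against 48.2% above 0 over all members. The stretch was picked because it holds genes past 1.5-fold, so these counts only describe it. C4a, a complement C4 gene, had 699.9 with DPN and 334 with E2, against 452 in hypoxia alone, 423 with In-Cl and 238 in the control. The DPN library was highest and the difference was 1.07 (interval 0.87 to 1.27). Cyp21a1, the steroid 21-hydroxylase, had 191 with DPN and 99.1 with E2, against 125 in hypoxia alone, 109.5 with In-Cl and 66.4 in the control (0.94), and Egfl8 had 216 with DPN and 142 with E2, against 171 in hypoxia alone, 148 with In-Cl and 130.1 in the control (0.60). Ppt2, a lysosomal thioesterase, differed by 0.51 and Rnf5, a ubiquitin ligase of the endoplasmic reticulum, by 0.43; both were highest with DPN. These 5 genes are on the plus strand, as is Stk19, which went the other way (-0.17).

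On the minus strand of the same stretch, Notch4 and Ager had another order. Notch4, a Notch family receptor, had 322 with DPN and 169 with E2, against 443 in hypoxia alone, 183 with In-Cl and 129 in the control. Hypoxia alone was highest and DPN came next, with a DPN to E2 difference of 0.93 (interval 0.64 to 1.21). Ager, the receptor for advanced glycation end products, had 138 with DPN and 101 with E2, against 201 in hypoxia alone, 89.8 with In-Cl and 72.4 in the control (0.44), again with hypoxia alone highest and DPN second. Pbx2 (0.20) also had hypoxia alone highest. Agpat1 (0.10), Atf6b (0.12), Fkbpl (0.04) and Dxo (-0.14) differed little and were highest in the control. C4a has a near-identical copy in the complement region, and the counting could have split reads between such copies, so its level is uncertain; the same holds for the class I histocompatibility gene RT1-CE4 (0.63). Whether counting used the strand of the reads is not given in the sources used here, so reads of overlapping genes may have been shared.

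**Figure D3:**
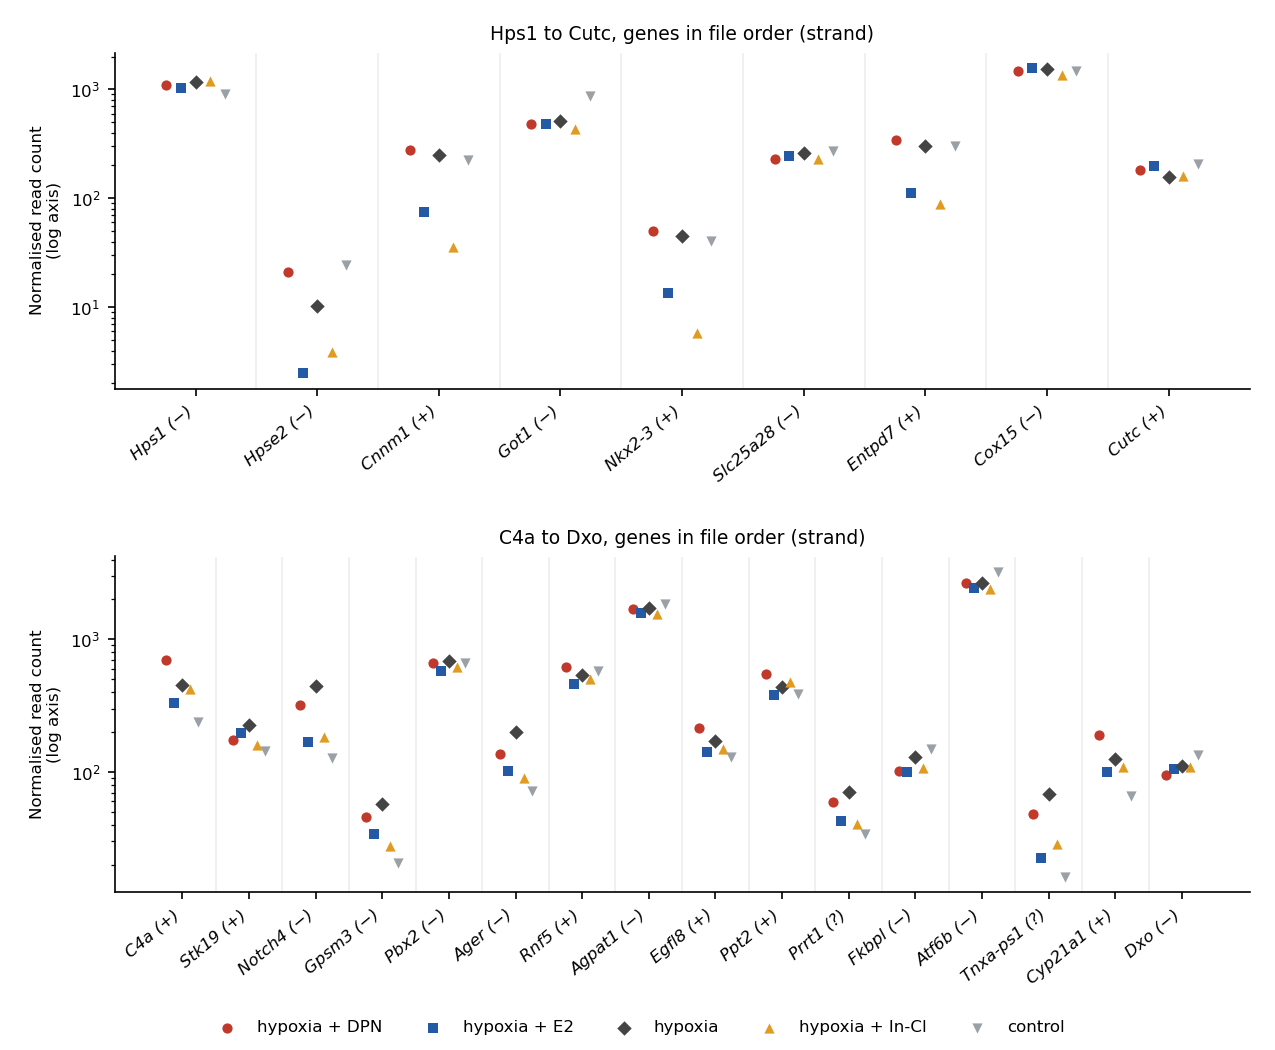
Normalised read counts (log axis) of neighbouring genes in table order, with the strand in parentheses (a question mark where the promoter table has none) and 1 mark per library; genes under 10 in every library are not drawn. In the upper panel, the stretch of Cnnm1, the E2 and In-Cl libraries are low in Hpse2, Cnnm1, Nkx2-3 and Entpd7. In the lower panel, the stretch of C4a, 11 of 13 members are higher with DPN than with E2. Both stretches were picked for their genes past 1.5-fold.

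Asl and Gusb, neighbours on the plus strand of chromosome 12, were likewise low in both the E2 and the In-Cl library. Asl, argininosuccinate lyase, which forms arginine, had 966 with DPN and 583 with E2, against 969.8 in hypoxia alone, 581 with In-Cl and 828 in the control, a difference of 0.73 (interval 0.57 to 0.89). Gusb, the lysosomal beta-glucuronidase, had 937 with DPN and 668 with E2, against 913 in hypoxia alone, 679.8 with In-Cl and 1263 in the control (0.49). The 4 minus-strand members around them lay between 0.07 and 0.32. In the opposite direction, Map4k1, a kinase upstream of stress kinases, and Rasgrp4, a Ras activator, are plus-strand neighbours on chromosome 1. Map4k1 had 1634 with DPN and 2358 with E2, against 2340.2 in hypoxia alone, 3044 with In-Cl and 2363 in the control (-0.53), and Rasgrp4 had 797 with DPN and 1161 with E2, against 1157 in hypoxia alone, 1500.3 with In-Cl and 1173 in the control (-0.54). DPN was lowest and In-Cl highest in both. All 9 members of that stretch were below 0, with a median of -0.38, against 51.5% below 0 over all members. This stretch too was picked with its values known, so the count only describes it.

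The other genes at least 1.5-fold higher with DPN were Smim8, Fmod, Kcnh2, Ifi35, RT1-CE4, Fan1, Tmem107, Adamts4, Nfkbiz, Cgnl1 and 2 uncharacterised rows. Nfkbiz, an inducible regulator of NF-kappaB target genes, had 294 with DPN and 195 with E2, against 218 in hypoxia alone, 246 with In-Cl and 146 in the control (0.59). Kcnh2, a potassium channel, had 156 with DPN and 99.3 with E2, against 112 in hypoxia alone, 133 with In-Cl and 147 in the control (0.64), and Adamts4, a protease that cleaves aggrecan, had 121 with DPN and 79.5 with E2, against 130.1 in hypoxia alone, 120.3 with In-Cl and 90.6 in the control (0.60). The 2 rows are LOC310926, at 31982 with DPN and 8652 with E2, against 36357 in hypoxia alone, 27919 with In-Cl and 34064 in the control, and LOC257642, at 83355 with DPN and 52063 with E2, against 83413 in hypoxia alone, 65399 with In-Cl and 73629 in the control. Both were low in the E2 library and stand in the tables directly before the row of 18S ribosomal RNA, which had 57968 with DPN and 39538 with E2, against 55607 in hypoxia alone, 43779 with In-Cl and 58008 in the control. Each symbol has another row, not counted as a member, which had 9222 with DPN and 8118 with E2 for LOC310926 and 42406 with DPN and 41246 with E2 for LOC257642. The 5.8S ribosomal RNA row beside them had 11425 with DPN and 307 with E2, against 13691 in hypoxia alone, 10513 with In-Cl and 12836 in the control. Other 5.8S rows, much lower in level, differed less. They had 96.5 with DPN and 77.2 with E2, 94.4 with DPN and 77.2 with E2, and 47.7 with DPN and 39.8 with E2. The ribosomal RNA rows made up 4.67% of all normalised counts with DPN and 3.44% with E2, against 4.56% in hypoxia alone, 3.65% with In-Cl and 3.92% in the control. The part of ribosomal RNA reads in the rows of LOC310926 and LOC257642 was not tested.

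Adam11, a membrane protein of the ADAM family, had the largest difference downward among the members. The 7 adjacent rows left out of the members differed more, from Akip1 at -2.02 to Ascl3 at -7.78. Adam11 had 53.5 with DPN and 192 with E2, against 77.6 in hypoxia alone, 297 with In-Cl and 83.3 in the control. The E2 and In-Cl libraries were high and the DPN library was lowest, 3.54-fold lower than E2 (-1.82, interval -2.32 to -1.38). Serinc2, of the serine incorporator family, had 121 with DPN and 228 with E2, against 199 in hypoxia alone, 176 with In-Cl and 119 in the control. DPN and the control were alike and the other 3 libraries were higher, with a DPN to E2 difference of -0.91 (interval -1.25 to -0.58). The Serinc2 promoter is printed as that of the second largest difference downward (GRCr8, chr5:147898748-147899047, minus strand, 5′ to 3′ along the gene), and it holds neither motif, hence no capitals.
Serinc2: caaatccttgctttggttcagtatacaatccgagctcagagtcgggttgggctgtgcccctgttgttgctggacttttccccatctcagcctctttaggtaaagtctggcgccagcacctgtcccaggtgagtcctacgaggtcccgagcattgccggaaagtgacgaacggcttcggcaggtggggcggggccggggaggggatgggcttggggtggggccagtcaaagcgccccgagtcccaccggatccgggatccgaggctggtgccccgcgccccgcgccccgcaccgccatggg

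Rbm3, an RNA-binding protein known for its rise in the cold, was the only gene averaging 1600 or more among the members at least 1.5-fold lower with DPN. It had 7403 with DPN and 12034 with E2, against 10921 in hypoxia alone, 7057 with In-Cl and 7245 in the control. DPN, In-Cl and control were alike, while E2 and hypoxia alone were higher; the difference of DPN from E2 was -0.70 (interval -0.74 to -0.66). Ttc39b had 175 with DPN and 312 with E2, against 184 in hypoxia alone, 202 with In-Cl and 179 in the control, and the E2 library stood above 4 others that were alike (-0.83, interval -1.12 to -0.56). Tubb3, a neuronal-type beta-tubulin, showed the same pattern, at 123 with DPN and 195 with E2, against 134 in hypoxia alone, 123 with In-Cl and 136 in the control (-0.66, interval -1.01 to -0.32). Car12, a membrane carbonic anhydrase that is also counted among estrogen targets, had 164 with DPN and 261 with E2, against 212 in hypoxia alone, 141 with In-Cl and 1.92 in the control. It was near 0 in the control, and among the hypoxic libraries E2 was highest (-0.67, interval -0.97 to -0.37).

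Atp13a3, a transport ATPase, had 94.5 with DPN and 156 with E2, against 91.0 in hypoxia alone, 132 with In-Cl and 112 in the control, with DPN close to hypoxia alone (-0.71). Mcm8, a helicase of DNA repair, had 99.99 with DPN and 165 with E2, against 152 in hypoxia alone, 174 with In-Cl and 182 in the control, and the DPN library was lowest of the 5 (-0.71). Kcnk2, a background potassium channel, had 101 with DPN and 164 with E2, against 127 in hypoxia alone, 141 with In-Cl and 125 in the control (-0.70), again lowest with DPN. Kif26b, an atypical kinesin, had 176 with DPN and 277 with E2, against 282 in hypoxia alone, 254 with In-Cl and 220.5 in the control (-0.65). Acan, the proteoglycan aggrecan, had 91.5 with DPN and 144 with E2, against 137 in hypoxia alone, 95.7 with In-Cl and 205 in the control (-0.65), with DPN and In-Cl both low. Spata24 (-0.88), Cyp2t1 (-0.80), Ccdc125 (-0.71) and the inositol phosphate kinase Itpk1 (-0.70) complete the 15. Quantile normalization put Spata24 at -1.82.

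The other genes at least 1.5-fold lower were Ntrk2, Spsb4, Bid, Myh8, Gk, Cit, Ccnt1, Pak3, Kcnn4, Mrps28, RGD1305298 and RGD1309808. Kcnn4, a calcium-activated potassium channel, had 141 with DPN and 213 with E2, against 201 in hypoxia alone, 128 with In-Cl and 347 in the control (-0.59). Bid, a pro-death member of the BCL2 family, had 99.8 with DPN and 152 with E2, against 89.9 in hypoxia alone, 119 with In-Cl and 132 in the control (-0.61). RGD1305298 had 554 with DPN and 1187 with E2, against 1319.6 in hypoxia alone, 1302 with In-Cl and 1463 in the control, so that the DPN library alone stood low (-1.10, interval -1.25 to -0.95). RGD1309808 had 149.9 with DPN and 291 with E2, against 531 in hypoxia alone, 198 with In-Cl and 164 in the control (-0.95), and hypoxia alone was highest. Myh8, a sarcomeric myosin heavy chain, belongs to a cluster on chromosome 10 in which Myh3 (-0.47), Myh2 (-0.24), Myh1 (-0.49) and Myh4 (-0.22) were also below 0. Myh8 had 51.4 with DPN and 78.7 with E2, against 176 in hypoxia alone, 239.9 with In-Cl and 183 in the control, and Myh4 had 51.4 with DPN and 60.1 with E2, against 169 in hypoxia alone, 212 with In-Cl and 186 in the control. Both were low in the DPN and E2 libraries together. These heavy chains are near-identical in sequence, so their separate counts are uncertain.

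Values of hypoxia alone were set beside both libraries for the 55 genes. Among the 28 genes higher with DPN, hypoxia alone lay between DPN and E2 in 20, above both in 6 and below both in 2, and it was nearer to E2 in 17. Among the 27 lower genes it lay between in 19, above both in 5 and below both in 3, and it was nearer to E2 in 17. The In-Cl library was nearer to E2 in 16 of the 28 and in 17 of the 27. These counts share the DPN and E2 libraries that chose the genes and are given as a description. The same shares over all members were not computed, so the counts are not a trait of these genes.

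Prostanoid genes, the subject of the series title, differed in both directions. Ptgs2 had 222 with DPN and 306 with E2, against 258 in hypoxia alone, 218 with In-Cl and 111 in the control. DPN and In-Cl were alike, E2 was the highest, and every hypoxic library was above the control. The DPN to E2 difference was -0.46 (interval -0.73 to -0.20), under 1.5-fold, on 210 approximate reads with DPN and 280 with E2. The Ptgs2 promoter is printed for its place in the study (GRCr8, chr13:64713813-64714112, plus strand); it holds 0 GGTCA units, and its capitals mark the hypoxia core, counted 2 times.
Ptgs2: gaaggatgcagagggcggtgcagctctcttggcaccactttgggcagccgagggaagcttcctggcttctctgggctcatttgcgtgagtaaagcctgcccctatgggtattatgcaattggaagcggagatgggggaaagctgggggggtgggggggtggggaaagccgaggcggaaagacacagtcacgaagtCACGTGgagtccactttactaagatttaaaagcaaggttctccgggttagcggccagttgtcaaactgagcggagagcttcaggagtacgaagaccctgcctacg
Ptges, the inducible prostaglandin E synthase, had 175 with DPN and 139.6 with E2, against 149 in hypoxia alone, 171 with In-Cl and 32.2 in the control. Its difference of 0.32 (interval -0.02 to 0.67) was within counting error. Cbr1, carbonyl reductase, which acts on prostaglandins among other substrates, had 4167 with DPN and 2816 with E2, against 5579 in hypoxia alone, 3052 with In-Cl and 4319.6 in the control. The DPN value stood between hypoxia alone and the E2 and In-Cl pair, 0.56 (interval 0.49 to 0.64), also under 1.5-fold. Of the 12 prostanoid members, 7 were above 0 and 5 below, against 48.2% of all members above 0 and 51.5% below, and the median was 0.07. Ptges2, another prostaglandin E synthase, was at -0.34 (interval -0.60 to -0.09) and the phospholipase Pla2g4a at -0.28 (interval -0.56 to -0.02), while prostacyclin synthase, Ptgis, was at -0.08 (interval -0.18 to 0.02). Ptgs1, the constitutive cyclooxygenase, was under the level for members, with 27 approximate reads with DPN and 38 with E2 (-0.52, interval -1.31 to 0.21).

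The estrogen receptors themselves were close to the limit of detection and none was a member. Esr2 had 22 approximate reads with DPN and 6 with E2, against 14 in hypoxia alone, 15 with In-Cl and 4 in the control. Its log2 difference was 1.63 (interval 0.48 to 3.42). Esr1 had 3 reads with DPN and 12 with E2, against 9 in hypoxia alone, 16 with In-Cl and 4 in the control, a difference of -1.71 (interval -4.52 to -0.16). Esr2 was thus higher and Esr1 lower in the DPN library, each on few reads. Gper1 had 6 reads with DPN and 3 with E2 (0.74, interval -1.28 to 3.58). Among 16 receptor cofactors and relatives, 10 were above 0 and 6 below. The acetyltransferase Crebbp was at 0.30 (interval 0.12 to 0.47) and the coactivator Ncoa1 at -0.16 (interval -0.36 to 0.03).

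Of 19 genes known as estrogen targets in other tissues, 12 were above 0 and 7 below, with a median of 0.02, and Car12 alone passed 1.5-fold. Cxcl12, a chemokine, had 10469 with DPN and 8299.6 with E2, against 8011 in hypoxia alone, 11166 with In-Cl and 7857 in the control. DPN and In-Cl were the high libraries and the difference was 0.34 (interval 0.29 to 0.38). Stc2, a secreted glycoprotein, had 868 with DPN and 677 with E2, against 749.7 in hypoxia alone, 640.4 with In-Cl and 623 in the control, with DPN highest (0.36, interval 0.21 to 0.51). Igfbp4, a binding protein of insulin-like growth factors, was at 0.29 (interval 0.03 to 0.55). Cyclin D1, Ccnd1, was at 0.00 (interval -0.05 to 0.05) and Myc at -0.002 (interval -0.09 to 0.08), so neither differed beyond counting error.

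Genes of the contractile apparatus and actin cytoskeleton lay mostly below 0. Of 29 members, 24 were lower with DPN and 5 higher, the median was -0.14, and 19 had a counting interval below 0 and 3 above; Pln alone passed 1.5-fold, in the other direction. Many of these genes are abundant, which narrows their intervals, and abundance does so in the lists below too. Over all members 48.2% were above 0 and 51.5% below, with 12.5% of intervals above 0 and 14.2% below. The counts of each list are to be read beside these shares. Acta2, smooth muscle actin, had 115616 with DPN and 143132 with E2, against 152451 in hypoxia alone, 108399 with In-Cl and 119362 in the control. DPN, In-Cl and the control were low, with hypoxia alone and E2 high, and the difference was -0.31 (interval -0.32 to -0.30). Cnn1, calponin, which damps myosin activity, had 4857 with DPN and 6570.5 with E2, against 6229 in hypoxia alone, 4201 with In-Cl and 6699 in the control (-0.44, interval -0.49 to -0.38). Itga8, the integrin chain of smooth muscle, had 849 with DPN and 1178 with E2, against 929.6 in hypoxia alone, 896 with In-Cl and 1418 in the control (-0.47, interval -0.60 to -0.34). The small heat shock protein Hspb6 was at -0.33 (interval -0.56 to -0.10), the light chain Myl9 at -0.28 (interval -0.32 to -0.25) and filamin, Flna, at -0.26 (interval -0.28 to -0.25). Myh11, the smooth muscle myosin heavy chain, and Myocd, a coactivator of such genes, were within counting error, at -0.12 (interval -0.37 to 0.13) for Myh11 and -0.06 (interval -0.32 to 0.20) for Myocd.

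**Figure D4:**
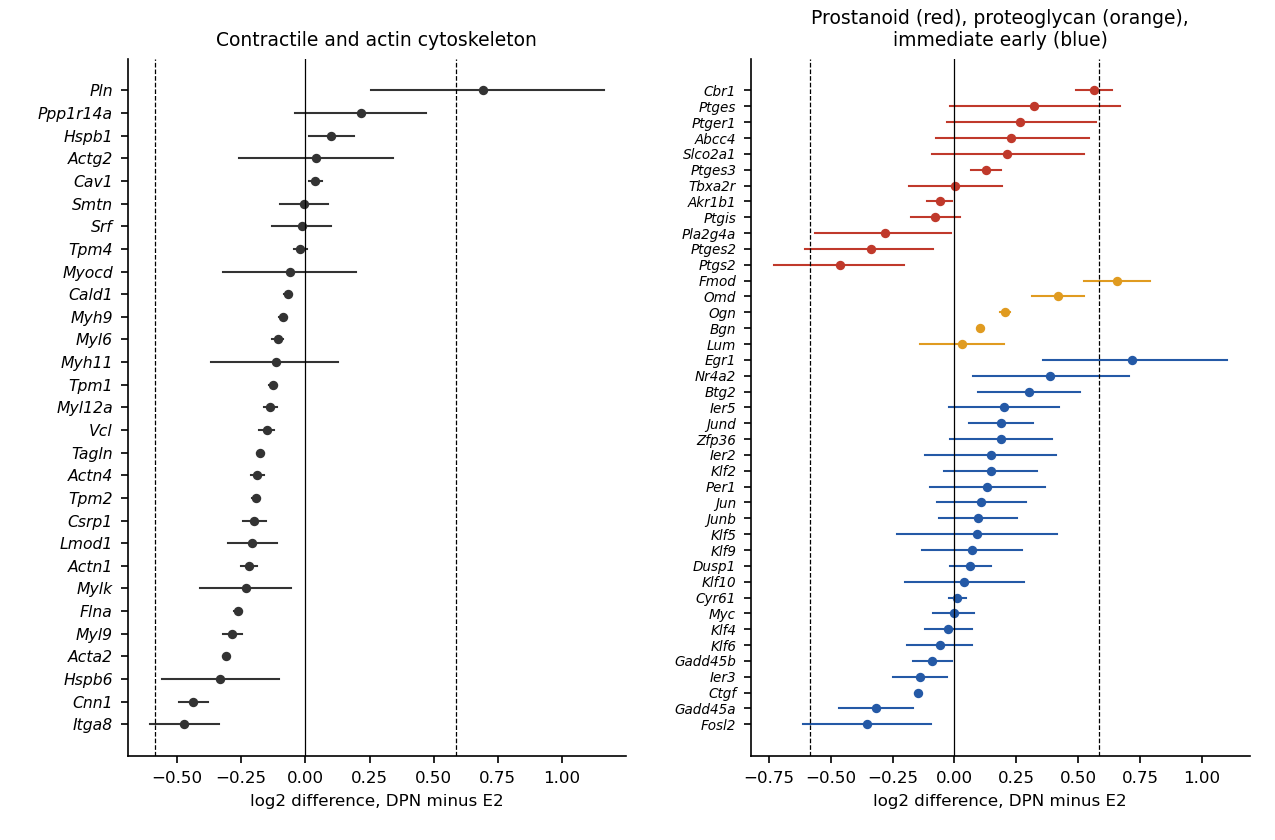
Log2 difference of the DPN minus the E2 library with its 95% counting interval (bars) for each member of 4 lists; dashed lines mark 1.5-fold. At left, 24 of 29 contractile and cytoskeletal genes lie below 0, and Pln lies apart at 0.69; at right, prostanoid genes run from Ptgs2 at -0.46 to Cbr1 at 0.56, all 5 proteoglycans lie above 0, and the immediate early genes run from Fosl2 at -0.35 to Egr1 at 0.72.

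All 10 smooth muscle markers, a list that overlaps the contractile one, were below 0, with a median of -0.18; 9 of 10 were below after median centring or with equal sums. Their summed normalised counts were 354645 with DPN and 409744 with E2, against 425877 in hypoxia alone, 336902 with In-Cl and 367742 in the control. In bulk samples fewer cells of a type and less RNA per cell cannot be told apart. All 4 striated muscle markers that were members lay below 0 too, and they include Acta1 (-0.26), the skeletal actin close in sequence to Acta2.

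Of 9 small leucine-rich proteoglycans of the matrix with a row, 5 were members and the rest were under the level. All 5 members were higher with DPN, with a median of 0.21, and 4 had an interval above 0. Fmod, fibromodulin, which binds collagen fibrils, had 1259 with DPN and 799 with E2, against 925 in hypoxia alone, 1438 with In-Cl and 926 in the control. In-Cl was highest and DPN second, E2 was lowest, and the difference was 0.66 (interval 0.52 to 0.79), past 1.5-fold. Omd, osteomodulin, had 1837 with DPN and 1375 with E2, against 1068 in hypoxia alone, 1803 with In-Cl and 662 in the control (0.42, interval 0.31 to 0.52), with DPN and In-Cl alike. Ogn, osteoglycin, had 48274 with DPN and 41879.8 with E2, against 36942 in hypoxia alone, 45481 with In-Cl and 34828 in the control (0.20, interval 0.19 to 0.22). Bgn, biglycan, was at 0.10 (interval 0.09 to 0.11) and Lum, lumican, at 0.03 (interval -0.14 to 0.20).

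Collagens and elastic matrix genes leaned the other way, with 14 of 22 below 0, a median of -0.06, 12 intervals below 0 and 3 above. Col8a1, a short-chain collagen of the vessel wall, had 2550.3 with DPN and 3528 with E2, against 2429 in hypoxia alone, 3060.5 with In-Cl and 2281 in the control, so that E2 was highest (-0.47, interval -0.54 to -0.39). Tnc, the matrix glycoprotein tenascin C, had 4799.6 with DPN and 6364 with E2, against 5788 in hypoxia alone, 5017 with In-Cl and 5112 in the control (-0.41, interval -0.46 to -0.35). Elastin, Eln, was at 0.07 (interval 0.07 to 0.08), and the fibrillar collagen chain Col1a1 at 0.01 (interval -0.002 to 0.01).

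**Figure D5:**
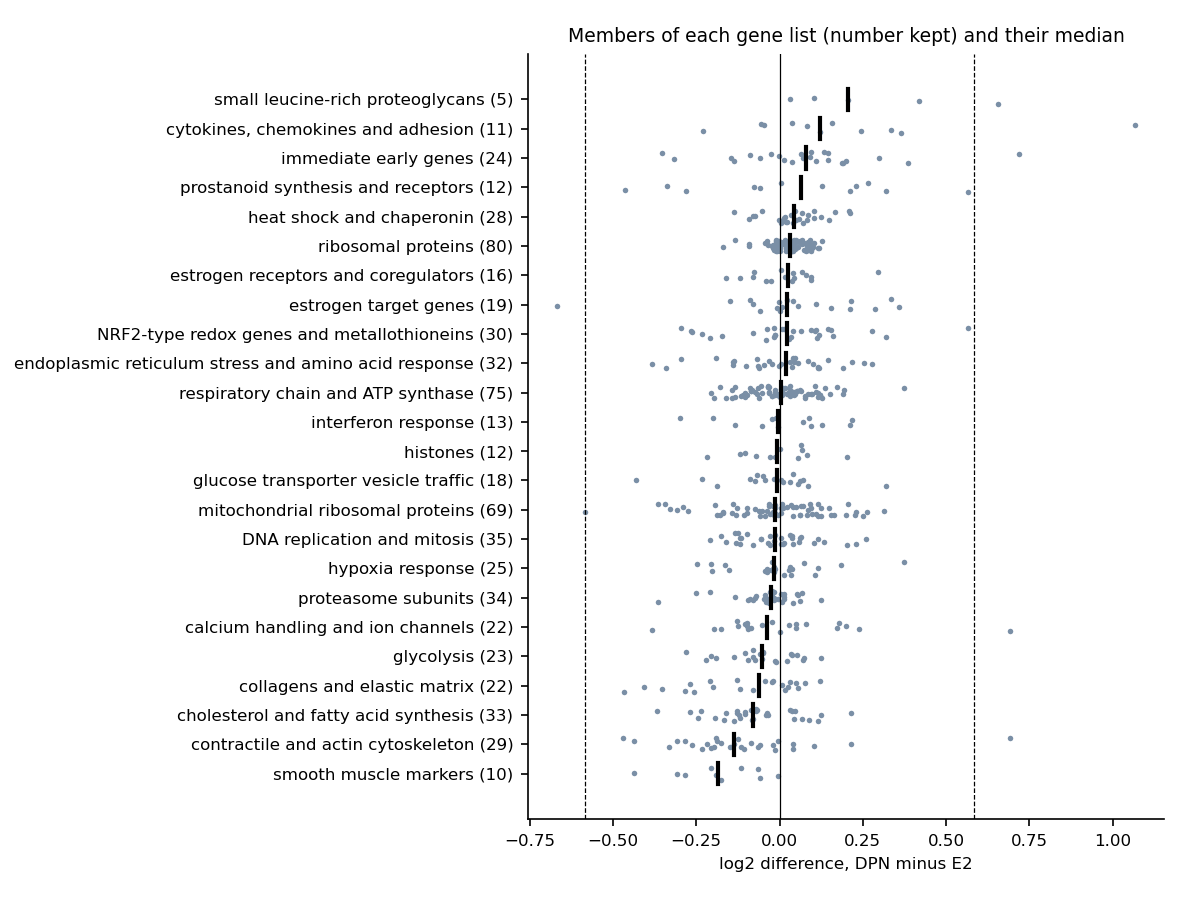
Log2 difference of the DPN minus the E2 library for the members of each gene list other than the markers of other cell types (1 point per gene, number of members in parentheses), with the list's median as a black bar; dashed lines mark 1.5-fold. Among the lists drawn, medians run from -0.18 for the smooth muscle markers to 0.21 for the small leucine-rich proteoglycans, and most list members lie within 1.5-fold.

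Genes that answer to low oxygen differed little between the libraries. Of 23 glycolysis members 16 were below 0, the median was -0.05, and 11 intervals were below 0 and 5 above. Pfkfb3, which makes the activator of phosphofructokinase, had 1546 with DPN and 1879.6 with E2, against 1602 in hypoxia alone, 1835 with In-Cl and 662 in the control (-0.28, interval -0.38 to -0.18), and Slc2a1, the glucose transporter GLUT1, had 5544 with DPN and 6462 with E2, against 6088 in hypoxia alone, 5641 with In-Cl and 677 in the control (-0.22, interval -0.28 to -0.17). Pgk1, phosphoglycerate kinase, was at 0.07 (interval 0.06 to 0.09) and Eno3, an enolase, at 0.12 (interval 0.06 to 0.19). Of 25 hypoxia response members 10 were above 0 and 15 below, with a median of -0.02. Cox4i2, the hypoxic isoform of a cytochrome oxidase subunit, had 354 with DPN and 272 with E2, against 385 in hypoxia alone, 283 with In-Cl and 16.8 in the control (0.38, interval 0.14 to 0.62), and Bhlhe40, a transcriptional repressor, was at -0.25 (interval -0.39 to -0.11).

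Stress and early response genes showed mostly small differences. Of the lists in this paragraph, only Egr1 (0.72), an immediate early gene, and C4a (1.07), in the cytokine and adhesion list, passed 1.5-fold. Of 28 heat shock and chaperonin genes 22 lay above 0 (median 0.04), and 12 intervals were above 0 and 0 below. The mitochondrial chaperonin subunit Hspe1 was at 0.21 (interval 0.13 to 0.29) and Fkbp4, a cochaperone of steroid receptors, at 0.21 (interval 0.12 to 0.30). Among 32 genes of endoplasmic reticulum stress 17 were above 0; Calr, the calcium-binding chaperone calreticulin, had 20128 with DPN and 16612 with E2, against 18229 in hypoxia alone, 18625 with In-Cl and 38351 in the control (0.28, interval 0.25 to 0.31), while Vldlr, a lipoprotein receptor, was at -0.38 (interval -0.42 to -0.34) and Trib3, a pseudokinase, at -0.34 (interval -0.48 to -0.20). Redox genes and metallothioneins were split 17 above and 13 below. Of 24 immediate early genes 16 were above 0, with 4 intervals above 0 and 5 below; Nr4a2, a nuclear receptor, was at 0.39 (interval 0.08 to 0.71) and Fosl2, an AP-1 subunit, at -0.35 (interval -0.61 to -0.10). Of 11 cytokine and adhesion genes 8 lay above 0, 3 with an interval above 0, and Csf1, a macrophage growth factor, was at 0.36 (interval 0.23 to 0.49). Interferon genes were 6 above and 7 below.

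Cholesterol and fatty acid synthesis genes were below 0 in 24 of 33 cases, with a median of -0.08, 13 intervals below 0 and 2 above. Hsd17b7, which acts on both cholesterol precursors and estrogens, had 132 with DPN and 170.3 with E2, against 149.7 in hypoxia alone, 137 with In-Cl and 223 in the control (-0.37, interval -0.72 to -0.02), and Mvk, mevalonate kinase, was at -0.27 (interval -0.45 to -0.08). DNA replication and mitosis genes were split 17 above and 18 below, with a median of -0.01; Mcm3, a replicative helicase subunit, was at 0.26 (interval 0.10 to 0.42), and Tyms, thymidylate synthase, at -0.21 (interval -0.39 to -0.03). Of 22 calcium handling genes 12 were below 0 and 9 above, with a median of -0.04, against 51.5% of all members below 0. Pln (0.69) alone in this list passed 1.5-fold, upward. The calcium channel subunits Cacna2d1 (-0.38, interval -0.58 to -0.19) and Cacna1c (-0.20, interval -0.37 to -0.02) were among those below. Glucose transporter vesicle genes were 9 above and 9 below, and Lnpep, an aminopeptidase of those vesicles, had 356 with DPN and 481 with E2, against 256 in hypoxia alone, 596 with In-Cl and 250.1 in the control (-0.43, interval -0.64 to -0.23).

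The large housekeeping families were centred near 0. Among 80 ribosomal protein genes, 55 lay above 0, with 43 intervals above 0 and 6 below, a median of 0.03 and a range from -0.17 to 0.13. Respiratory chain genes were 38 above and 36 below, and mitochondrial ribosomal protein genes 33 above and 36 below, of which Mrps28 alone was past 1.5-fold, at its very edge, and at -1.03 under quantile normalization. Proteasome subunits were below 0 in 23 of 34 cases, with a median of -0.03, and histones were 5 above and 6 below. By gene span in RefSeq, known for 92.7% of members, the median difference was 0.02 over the 1633 genes of shortest span and -0.04 over the 1633 of longest span, so long genes were slightly lower with DPN; the part of this in any list was not tested.

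All 10 smooth muscle markers were members and none was at 0 with DPN or with E2. Most markers of other cell types were sparse. Of 12 endothelial markers listed, 1 was a member, Tek (0.23), 4 were at 0 with DPN and 4 with E2, and the summed counts were 596 with DPN and 553 with E2. Of 11 leukocyte markers 1 was a member and the sums were 214 with DPN and 218 with E2, with 7 at 0 with DPN and 6 with E2. Epithelial markers summed to 546 with DPN and 521 with E2, neural crest and glia markers to 360.4 with DPN and 395 with E2, and striated muscle markers to 5228 with DPN and 6379 with E2. Fibroblast markers, several of which smooth muscle cells also express, summed to 310854 with DPN and 311604 with E2. Adipocyte and erythroid markers had 0 members; the adipocyte sums were 11.5 with DPN and 8.8 with E2, and the erythroid sums 26.6 with DPN and 22.2 with E2. Normalised counts summed to 22185239 in the DPN library and 22090980 in the E2 library, which corresponds to about 21000000 reads with DPN and 20200000 with E2.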

How the data were processed

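Each library has its own table of deposited log2 values, 17048 rows named by gene symbol. The submitters' processing notes name rn6, edgeR and TopHat. How reads were counted, with which annotation and strand setting, is not stated there. Per the labels' protocols, Trizol RNA went into SMARTer stranded libraries. The linear value (2 to the power of the log2 value, minus 1) is called a normalised read count. Low linear values come in steps worth 1.05 with DPN and 1.09 with E2, and at least 88.4% of low values in each library were whole multiples of the step to within 0.2 read. Dividing by the step gave approximate reads for exact Clopper-Pearson intervals at 95%, which cover counting error only; without molecular identifiers, PCR copies count as reads.

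Differences are DPN minus E2 on the log2(value + 1) scale, which understates changes of low genes, and a call is 1.5-fold. Named genes are the 15 largest differences each way among characterised symbols, Ptgs2, Ptgs1, Ptges, Esr1, Esr2 and Gper1, and the 2 highest and 2 lowest members of each list; further list members and genes in the stretches were named after their values were seen. The members and the 32 lists were chosen with earlier results of these data known, and the ribosomal protein pattern was narrowed to leave out kinases. The calculation was checked on simulated counts that held set fold changes and counting error only. That check could not show how many genes replicate libraries would put past 1.5-fold. Python 3.11.15, numpy 2.4.6, pandas 2.3.3 and scipy 1.17.1 were used. Of 8803 genes, 8689 matched RefSeq symbols (GRCr8), which supplied strand, span and promoters.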

Additional observations from a re-analysis of the deposited data

How the results depend on the processing

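The counts of genes past 1.5-fold depended most on the level asked of a gene. As reported they were 28 higher and 27 lower with DPN; a mean of 30 or more gave 124 higher and 104 lower, no filter 964 higher and 979 lower, and a mean of 1000 or more 3 higher and 2 lower. A 2-fold limit gave 6 higher and 2 lower, quantile normalization 43 higher and 46 lower, and a pseudocount of 16 gave 20 higher and 16 lower. Under median centring there were 31 higher and 26 lower, and with equal sums 31 higher and 25 lower. Keeping the ribosomal RNA rows and the 7 named rows gave 29 higher and 34 lower. Keeping every row gave 28 higher and 27 lower. Asking for an interval on 1 side of 0 also gave 28 and 27, which the 1.5-fold limit and the level had nearly fixed in advance. Leaving out LOC257642 and LOC310926, chosen after seeing the data, gave 26 higher and 27 lower. The median of all members shifted by at most 0.01 under the scalings. No named gene past 1.5-fold changed sign. Of all 129 named genes that were members, Smtn, at -0.005 as reported, was at 0 under median centring and at 0.002 with equal sums, and Col1a1 and Myh4 were at 0 under quantile normalization. Of the 129, 13 left their counting interval under quantile normalization. Among those past 1.5-fold, Rgs8 (2.27), Ankrd16 (2.11), Pln (1.80), S100vp (1.78), Spata24 (-1.82) and Mrps28 (-1.03) moved by more than 1.5 times, and Cnnm1 (2.82) and Adam11 (-2.72) by less. The others were Rpl21 (0.21), Pgk1 (0.17), Eln (0.11), Sparc (0.06) and Acta2 (-0.24). With equal sums 1 did, Eln (0.08). The median of the proteoglycans was 0.31 at a mean of 30 or more, and that of the immediate early genes was -0.03 at a mean of 1000 or more, with 9 of them left. The cause of these shifts was not tested. No replicate could be left out. No paired analysis was possible because each group has 1 library. Depth limits the low genes most: Nemp2, with 123 approximate reads with DPN and 73 with E2, had an interval of 0.27 to 1.14.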
